A study of Mus musculus with 91 samples.

Results

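The genes described here are 10 transcriptional regulators whose levels are used to tell resting from effector T cells. Bcl6, Tcf7, Lef1, Bach2 and Id3 stand for the resting state, and Id2, Prdm1, Maf, Gata3 and Tbx21 for the effector state. They were taken by symbol from 8 tables of read counts, in which each had 1 row per table, and they are 10 of the 20378 genes that the tables held between them. All 10 passed the filter on low counts in every table. Bulk total RNA had been read from Tregs (regulatory T cells, a CD4 lineage whose identity rests on the transcription factor Foxp3) sorted from spleens of C57/BL6 animals that carry a red fluorescent FoxP3 reporter. Every group shared this strain, reporter and organ. The animals had been given FP (mouse IL-2 fused to CD25, the alpha chain of its own receptor), mouse IL-2 or the control PBS. At 1.5 h and at 16 h there were 4 libraries each of FP, IL-2 and PBS. At 4 h there were 3 of FP, 4 of IL-2 and 3 of PBS, at 72 h 4 of FP, 3 of IL-2 and 3 of PBS, and at 168 h 4 of FP and 3 of PBS. A table labelled in vitro held 3 libraries of IL-2 and 3 of PBS at 1.5 h, and one labelled high dose held 3 of IL-2 and 3 of PBS with no dose or time in the labels. A restimulation table at 1.5 h held 4 libraries of FP followed by FP, 3 of PBS followed by FP, and 3 of PBS followed by PBS. The protocol text is the same for every sample and names 20 µg of FP or 100 µL of PBS and sorting after 1.5 h, also for samples labelled with later times. It names no dose of IL-2.

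In resting T cells the proteins of TCF1 (gene Tcf7) and LEF1, related factors with the same type of DNA-binding domain, and the repressor BACH2 hold back effector genes, and BCL6 and BLIMP1 (gene Prdm1) repress each other's gene in lymphocytes. ID2 and ID3 bind E proteins and keep them off DNA, and lymphocytes tend to exchange ID3 for ID2 when they become effector cells. GATA3 and T-bet (gene Tbx21), which direct type 2 and type 1 helper responses, and c-MAF are also used by effector Tregs in tissues, where BLIMP1 is needed for IL-10. IL-2 acts on Tregs through the factor STAT5, which binds as a dimer to the motif TTCNNNGAA and is known to repress Bcl6 in T cells.

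Library totals were 12212262 to 46108114 counts. The Treg list (Foxp3, Il2ra, Ikzf2, Ctla4, Tnfrsf18, Cd4 and Cd3e) summed to 3063 to 6584 CPM (read counts scaled to a common library total) and all 7 genes were detected in every group. Of the other cell types, 10 myeloid and macrophage markers were the highest at 20.6 to 1985 CPM, and markers of B cells summed to 19.1 to 66.9 CPM. At 4 h there were 2 further libraries, whose title and injected molecule contradict each other and which were placed in no group. The names of their count columns carry the treatment of the title. The library titled PBS, whose injected molecule is given as FP, had 577 CPM of Il2ra, the IL-2-inducible receptor chain CD25, and the one titled FP, whose injected molecule is given as PBS, had 2160.3 CPM. In the restimulation table library 1 labelled PBS then FP stood apart from its group: Il2ra was 566 CPM there, against 1785 and 1708 CPM in the other 2 and 639, 569 and 593 CPM after PBS then PBS. Results that rest on that library are given with and without it.

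Per kb of exon, the scale on which genes can be set side by side, Tcf7 was the highest of the 10 in the PBS groups of the 7 in vivo tables, with table means of 164 to 219 CPM per kb. Gata3 ranked next (38.9 to 52.3 CPM per kb), ahead of Id3, Lef1, Maf, Bach2 and Id2, whose medians over the tables ran down to 12.8 CPM per kb with overlapping ranges between neighbours. Bcl6 (6.13 to 8.56), Prdm1 (4.29 to 7.62) and Tbx21 (1.87 to 3.94 CPM per kb) were the lowest. The ranges of Tcf7 and Gata3 did not meet, nor did those of Prdm1 and Tbx21, and the ranges of every other pair of neighbours in this order overlapped. Tcf7 at the top and Tbx21 at the bottom were thus the places in the order that stood clear of the spread over tables. The tables were normalized separately, and these ranges set levels side by side across them. Bcl6, Tcf7, Lef1, Bach2, Maf and Gata3 overlap a gene on the opposite strand in GENCODE M21 (Gm37419, A630014C17Rik, Gm43352, Bach2os, Gm15655, and Gm13256 with 4930412O13Rik, in this order), and the sources used here do not say whether counting used strand, so reads from such partners could be counted with these 6 genes.

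**Figure D1:**
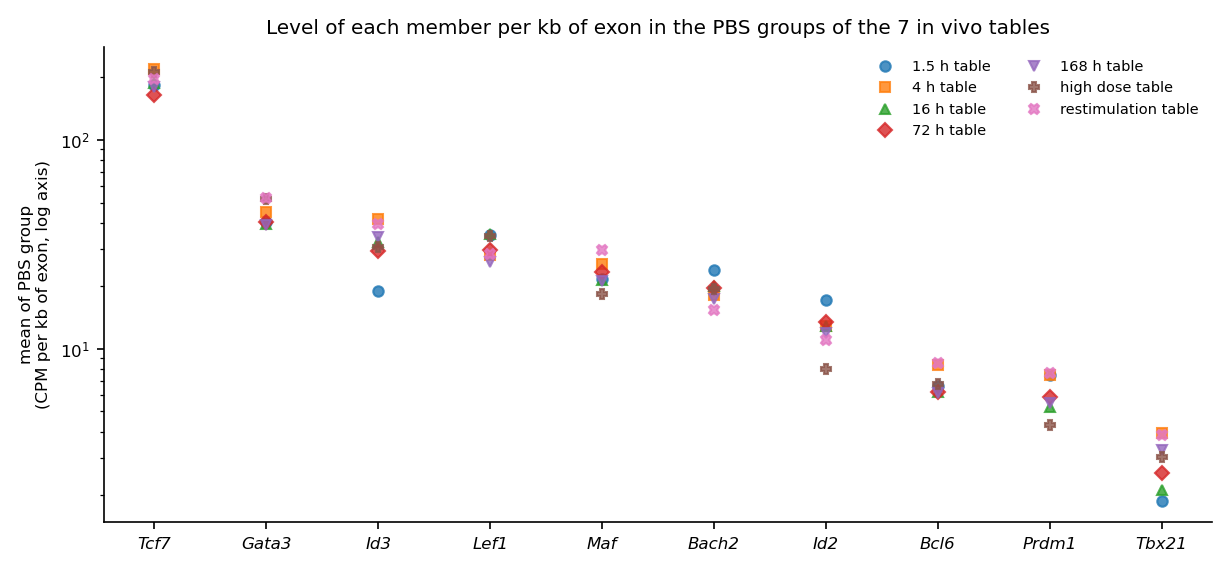
Mean level of each of the 10 genes in the PBS group of each in vivo table, in CPM per kb of exon on a log axis, with genes ordered by the median over the 7 tables and 1 symbol per table. Tcf7 lies above all others and Tbx21, at 1.87 to 3.94 CPM per kb, has the lowest median.

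Against PBS, Bcl6 and Tcf7 were each lower past the threshold (adjusted p below 0.01, edgeR quasi-likelihood F test with Benjamini-Hochberg adjustment over all genes) in 5 of the 13 comparisons, more often than any other of the 10, and never higher. Lef1 passed in none. The effector genes Prdm1 and Maf were each higher in 2 comparisons and lower in 1, Gata3 was higher in 2, Tbx21 higher in 1 and Id2 lower in 1, while Bach2 was lower in 2 and Id3 in 1. A lower value in bulk RNA cannot tell fewer cells that express a gene from less of its RNA in each cell. After IL-2 at 1.5 h, 2 of the 10 changed, both lower, beside 14.2% of all genes changed and 5.79% lower. After FP at 1.5 h it was the same 2 genes, beside 6.67% changed and 2.28% lower. At 16 h after FP 6 of the 10 were lower and none higher, where 28.8% of all genes changed and 14.3% were lower. At 72 h after FP 3 were lower and 4 higher, where 30.4% of all genes changed, 13.1% lower and 17.3% higher. In vitro 3 were lower and 3 higher after IL-2, where 13.9% changed, 6.54% lower and 7.4% higher. In these 5 comparisons the share of the 10 in each direction with a call lay above that of all genes. These comparisons and directions were picked for holding a call, and the 10 were chosen with earlier results of these data known. The shares are therefore a description and no test of the 10 as a set.

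In the other 8 comparisons with PBS edgeR called none of the 10. At 4 h 0.652% of all genes were called after IL-2 and 0.913% after FP. In each, 2 of the 10 had an unadjusted p below 0.05, beside 2474 and 3108 of all 17636 genes. DESeq2 called 2 of the 10 in each, among 790 genes after IL-2 and 1100 after FP. With the replicate number as a block, edgeR also called 2 of the 10 after each agent, Bcl6 and Tcf7 both lower. That fit called 509 genes after IL-2 and 994 after FP, where the fit without the block called 115.0 and 161.0. Whether the numbers pair the libraries at 4 h is not settled. Tags in the column names, whose meaning the sources used here do not give, cut across the numbers. Some libraries of the same number share a tag, and some of different numbers do. At 16 h after IL-2 0.35% of genes were called. There 3 of the 10 and 2021 of all 17453 genes had an unadjusted p below 0.05, and DESeq2 called 0 of the 10 and 137 genes. At 72 h after IL-2 edgeR called 0% of genes, with 82 at an unadjusted p below 0.05 and 0 by DESeq2; among the 10 it was 0 by each of these counts. At 168 h after FP edgeR called 1.21% of genes. There 5 of the 10 and 2582 of all 17411 genes had an unadjusted p below 0.05, and DESeq2 called 0 of the 10 and 520 genes. The high-dose table had 0% of genes called by edgeR, 2743 genes at an unadjusted p below 0.05, 549 genes called by DESeq2, 3 of the 10 at an unadjusted p below 0.05 and 0 of them by DESeq2. After PBS then FP in the restimulation table edgeR called 0.0111% of genes. There 1 of the 10 and 1608 of all 17953 genes had an unadjusted p below 0.05, and DESeq2 called 1 of the 10 among 143 genes. After FP then FP edgeR called 0.629%. Here 5 of the 10 and 3900 of all genes had an unadjusted p below 0.05, and DESeq2 called 5 of the 10 among 736 genes.

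**Figure D2:**
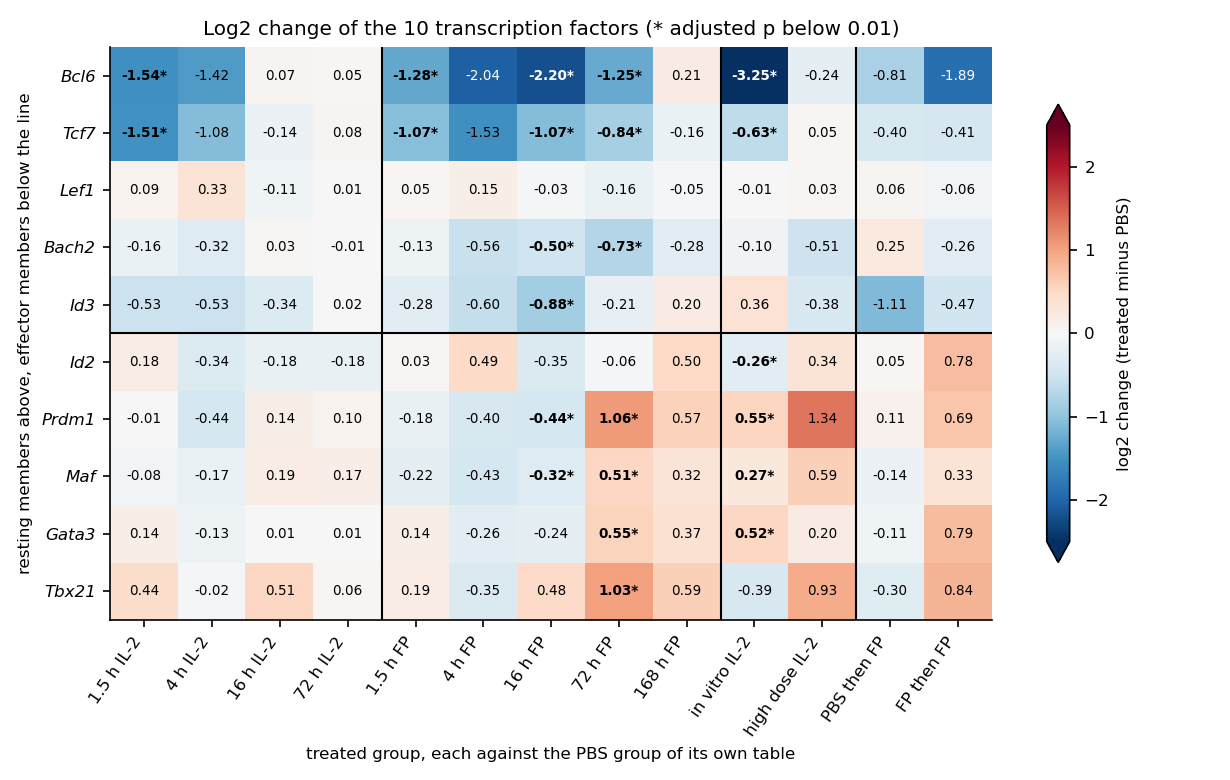
Log2 change of each gene (rows) in each treated group against the PBS group of its own table (columns, with the times of IL-2 and then of FP in order), coloured from -2.5 (blue) to 2.5 (red) with stronger changes drawn in the end colour, and an asterisk at adjusted p below 0.01. Bcl6 and Tcf7 are blue at 1.5 h and 4 h after both agents and at 16 h and 72 h after FP, Prdm1, Maf, Gata3 and Tbx21 are red at 72 h after FP, and no cell of the 168 h column carries an asterisk.

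Bcl6 (ENSMUSG00000022508, chromosome 16, 23965052 to 23988852, minus strand, GRCm38) encodes a zinc finger repressor that directs follicular helper T cells. Its promoter sequences are shown for the letters of the STAT5 motif, since Bcl6 was, with Tcf7, the gene called in the most comparisons. They run from 250 bases before to 50 bases after each of 2 RefSeq start sites (GRCm38.p6, minus strand at chr16:23988803-23989102 and at chr16:23981234-23981533), with matches to TTCNNNGAA in capitals. The first listed start of Tcf7 (minus strand, chr11:52282965-52283264) is shown beside them for comparison.
Bcl6, upstream start: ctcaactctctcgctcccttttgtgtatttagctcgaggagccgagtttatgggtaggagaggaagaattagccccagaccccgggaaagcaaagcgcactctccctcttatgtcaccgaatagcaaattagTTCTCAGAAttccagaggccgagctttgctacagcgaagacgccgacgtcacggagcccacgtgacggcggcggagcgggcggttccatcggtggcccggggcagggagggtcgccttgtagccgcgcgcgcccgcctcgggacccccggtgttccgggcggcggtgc
Bcl6, downstream start: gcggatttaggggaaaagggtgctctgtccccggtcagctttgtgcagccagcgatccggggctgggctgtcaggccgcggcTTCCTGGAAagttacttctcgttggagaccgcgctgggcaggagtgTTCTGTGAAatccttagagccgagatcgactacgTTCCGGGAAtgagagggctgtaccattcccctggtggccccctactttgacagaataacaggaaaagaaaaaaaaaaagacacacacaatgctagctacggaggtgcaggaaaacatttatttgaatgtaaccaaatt
Tcf7, first listed start: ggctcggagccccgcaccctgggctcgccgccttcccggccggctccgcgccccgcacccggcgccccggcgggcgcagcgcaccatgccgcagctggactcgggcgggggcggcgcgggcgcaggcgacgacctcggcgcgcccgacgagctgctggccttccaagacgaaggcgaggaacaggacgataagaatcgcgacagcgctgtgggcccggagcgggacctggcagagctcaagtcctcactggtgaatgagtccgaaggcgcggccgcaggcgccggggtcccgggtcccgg
The upstream Bcl6 window held 1 match and the downstream window 3, none of which overlap. The motif reads the same on both strands, and 8.3% of all 32851 promoter windows of this length (2726 of them) held it. Of the 14 windows of the 9 genes with an entry, 3 held it: both of Bcl6 and 1 of Bach2. A match is a description of the letters, and no binding was measured in these files. A window without a match says nothing of the letters outside it.

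Bcl6 RNA was lower within 1.5 h of either agent. It stood at 14.6, 21.6, 15.8 and 21.1 CPM in the FP libraries, 18.1, 16.9, 11.5 and 14.6 CPM in the IL-2 libraries and 43.9, 47.4, 48.2 and 38.0 CPM in the PBS libraries. The treated libraries lay apart from the PBS libraries, with no overlap, while FP and IL-2 libraries were interleaved. The log2 change was -1.28 (95% interval -1.61 to -0.95, adjusted p = 9.5e-05) after FP and -1.54 (95% interval -1.88 to -1.20, adjusted p = 9.35e-06) after IL-2.

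At 4 h Bcl6 was 16.4, 15.4 and 8.81 CPM after FP, 29.0, 27.0, 11.0 and 16.7 CPM after IL-2 and 58.2, 68.1 and 41.3 CPM after PBS. Again each treated library was below each PBS library. The spread between libraries was wide in this table, and the log2 changes of -2.04 (95% interval -2.91 to -1.18, adjusted p = 0.02) after FP and -1.42 (95% interval -2.19 to -0.64, adjusted p = 0.0663) after IL-2 did not pass the threshold. Treated and PBS libraries of the same replicate number deviated together at 4 h, though some of different numbers did too. With the number as a block both changes passed, at -2.07 (adjusted p = 3.9e-05) and -1.22 (adjusted p = 0.000973). With the sequencing lane of the labels as a covariate, FP gave -1.77 (adjusted p = 0.419). Of the 3 FP libraries 2 were on lane 1, and all PBS and IL-2 libraries were on lane 2, so that lane and FP can be told apart only through the FP library on lane 2. The 2 libraries with contradictory labels had 11.6 CPM (titled FP) and 40.4 CPM (titled PBS).

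From 16 h on the agents parted. Bcl6 had 10.8, 8.54, 8.50 and 8.58 CPM in the FP libraries at 16 h, 44.5, 45.9, 42.8 and 42.2 CPM in the IL-2 libraries and 39.2, 49.1, 46.2 and 32.4 CPM in the PBS libraries. The FP libraries were far below both other groups, whose values overlapped. The change was -2.20 (95% interval -2.46 to -1.94, adjusted p = 7.47e-10) after FP and 0.07 (95% interval -0.16 to 0.31, adjusted p = 0.845) after IL-2. At 72 h the libraries had 12.4, 14.6, 23.8 and 19.02 CPM after FP, 40.7, 38.4 and 50.4 CPM after IL-2 and 42.0, 42.1 and 40.8 CPM after PBS. No FP library reached the lowest IL-2 or PBS library, and the change was -1.25 (95% interval -1.65 to -0.86, adjusted p = 0.00018) after FP. By 168 h the groups overlapped, with 42.2, 45.2, 58.8 and 44.3 CPM after FP and 35.5, 35.6 and 52.1 CPM after PBS, a change of 0.21 (95% interval -0.15 to 0.57, adjusted p = 0.583).

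**Figure D3:**
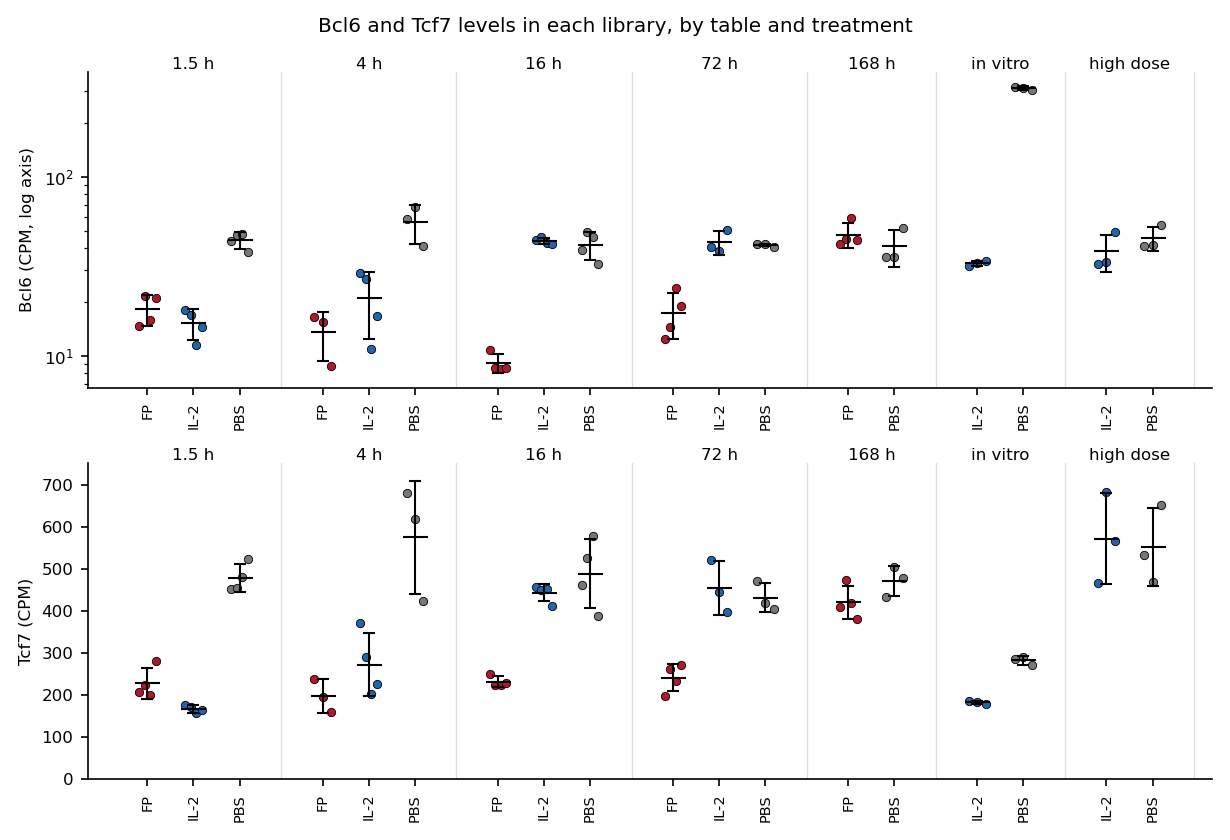
Bcl6 (upper panel, CPM on a log axis) and Tcf7 (lower panel, CPM) in every library with a group in 7 tables, with FP left of IL-2 left of PBS. Points are libraries and bars the mean ± SD. The FP points of both genes lie under the PBS points from 1.5 h to 72 h and overlap with them at 168 h, the IL-2 points lie under the PBS points at 1.5 h, 4 h and in vitro, and the PBS points of Bcl6 in vitro (306 to 319.6 CPM) lie above all others.

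Tcf7 (ENSMUSG00000000782, chromosome 11, 52252371 to 52283014, minus strand) encodes TCF1, the high-mobility-group factor of naive and memory-like T cells. At 1.5 h it had 208, 223, 199 and 281 CPM in FP libraries, 177, 172, 156 and 164 CPM in IL-2 libraries and 452, 454, 479.8 and 524 CPM in PBS libraries. The 3 groups did not overlap, with IL-2 lowest, and the changes were -1.07 (95% interval -1.29 to -0.85, adjusted p = 1.12e-05) after FP and -1.51 (95% interval -1.73 to -1.29, adjusted p = 2.67e-07) after IL-2. At 4 h the libraries had 239, 196 and 159.5 CPM after FP, 372, 289.9, 203 and 225 CPM after IL-2 and 680.3, 619 and 424 CPM after PBS, with every treated library under every PBS library. The changes of -1.53 (95% interval -2.16 to -0.91, adjusted p = 0.0168) and -1.08 (95% interval -1.64 to -0.51, adjusted p = 0.058) missed the threshold and passed it with the replicate block, at -1.53 (adjusted p = 0.000121) after FP and -0.96 (adjusted p = 0.00263) after IL-2. With lane as a covariate FP gave -1.26 (adjusted p = 0.404). The libraries with contradictory labels had 196 CPM (titled FP) and 381 CPM (titled PBS).

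At 16 h Tcf7 was 251, 224, 224 and 229 CPM after FP, 457, 450.3, 452 and 413 CPM after IL-2 and 461, 526, 578 and 388 CPM after PBS, so that FP alone stood apart. The change was -1.07 (95% interval -1.28 to -0.87, adjusted p = 2.58e-07) after FP, while IL-2 gave -0.14 (95% interval -0.35 to 0.07, adjusted p = 0.601). At 72 h FP libraries had 199, 262, 234 and 271 CPM, IL-2 libraries 522, 445 and 397 CPM and PBS libraries 470.4, 418 and 405 CPM. The FP libraries were again below all others, with a change of -0.84 (95% interval -1.11 to -0.57, adjusted p = 0.000197). At 168 h the groups overlapped at 409, 474, 418 and 380.2 CPM after FP and 432, 504 and 478 CPM after PBS, a change of -0.16 (95% interval -0.39 to 0.06, adjusted p = 0.495).

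Lef1 (ENSMUSG00000027985, chromosome 3, 131110471 to 131224356, plus strand), a factor related to TCF1 in its DNA-binding domain, was called in no comparison. Its mean level was 319.9 ± 31.2 CPM after FP, 327 ± 26.3 CPM after IL-2 and 308 ± 16.1 CPM after PBS at 1.5 h (SD, n = 4 each). At 72 h it was 227, 229, 256 and 216 CPM after FP, 283, 259 and 242 CPM after IL-2 and 268, 256 and 255 CPM after PBS, groups that met at their edges. Over the 13 comparisons with PBS its log2 change ran from -0.16 to 0.33. At 16 h the interval of Lef1 after FP was -0.18 to 0.13, and at 1.5 h after IL-2 it was -0.10 to 0.27, intervals that leave out a change as large as those of Tcf7.

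Bach2 (ENSMUSG00000040270, chromosome 4, 32238804 to 32586108, plus strand), a repressor that limits effector programmes, was lower at 16 h and 72 h after FP. At 1.5 h it averaged 216 ± 26.4 CPM after FP, 211 ± 32.4 CPM after IL-2 and 236 ± 17.8 CPM after PBS (SD, n = 4 each), without a call. At 16 h its libraries had 149.9, 143, 139 and 132 CPM after FP, 214, 204, 201 and 191 CPM after IL-2 and 217, 209, 177 and 194 CPM after PBS. All 4 FP libraries were below every other library, with a change of -0.50 (95% interval -0.65 to -0.35, adjusted p = 3.41e-05). At 72 h the values were 105, 113, 125 and 124 CPM after FP, 208, 194 and 175 CPM after IL-2 and 197, 188 and 194 CPM after PBS, again with FP apart from both, and the change was -0.73 (95% interval -0.92 to -0.54, adjusted p = 4.07e-05). At 168 h it was 125, 155, 135 and 147 CPM after FP and 159, 199 and 155 CPM after PBS, with no overlap but with the highest FP and the lowest PBS library less than 1 CPM apart, and a change of -0.28 (95% interval -0.53 to -0.04, adjusted p = 0.271).

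Id3 (ENSMUSG00000007872, chromosome 4, 136143497 to 136145755, plus strand), an inhibitor of E proteins that naive and central cells keep, passed the threshold against PBS at 16 h after FP and nowhere else. At 16 h it had 33.8, 31.4, 31.4 and 29.8 CPM after FP, 42.9, 49.2, 51.8 and 38.7 CPM after IL-2 and 42.9, 59.5, 67.7 and 61.7 CPM after PBS. The FP libraries were below all others, and the change was -0.88 (95% interval -1.13 to -0.62, adjusted p = 2.24e-05). At 72 h it was 45.5, 47.5, 47.5 and 42.2 CPM after FP, 57.0, 52.5 and 50.1 CPM after IL-2 and 55.3, 54.3 and 48.3 CPM after PBS, where FP lay just under the rest, with a change of -0.21 (95% interval -0.39 to -0.02, adjusted p = 0.0662). At 168 h it was 79.3, 71.6, 65.0 and 67.0 CPM after FP and 60.0, 62.3 and 62.3 CPM after PBS. Here the FP libraries were above the PBS libraries with no overlap, and the change of 0.20 (95% interval -0.01 to 0.41, adjusted p = 0.356) did not pass. At 1.5 h its PBS libraries differed more than its treated ones: 26.5, 28.3, 25.0 and 31.4 CPM after FP and 22.1, 18.95, 25.8 and 26.4 CPM after IL-2 stood beside 31.6, 42.0, 46.0 and 15.4 CPM after PBS. PBS library 4 was the lowest of the 12. The change after IL-2 was -0.53 (95% interval -1.06 to -0.01, adjusted p = 0.13) with that library and -0.77 (adjusted p = 0.00144), past the threshold, without it.

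On the effector side 4 genes were higher at 72 h after FP, and Prdm1 and Maf among them had been lower than PBS at 16 h. Prdm1 (ENSMUSG00000038151, chromosome 10, 44437177 to 44528501, minus strand) encodes the repressor BLIMP1. At 16 h it was 22.7, 21.01, 22.6 and 19.7 CPM after FP, 30.7, 33.3, 33.2 and 31.4 CPM after IL-2 and 33.4, 33.6, 27.2 and 22.4 CPM after PBS. FP was below all IL-2 libraries and overlapped the lowest PBS library, and the change against PBS was -0.44 (95% interval -0.68 to -0.20, adjusted p = 0.00467). Leaving out PBS library 1 or 2, or FP library 2, 3 or 4, took its adjusted p above 0.01, from -0.36 (adjusted p = 0.0202) without PBS library 2 to -0.44 (adjusted p = 0.0124) without FP library 3. At 72 h Prdm1 had 72.8, 70.0, 68.1 and 60.8 CPM after FP, 31.2, 34.1 and 39.2 CPM after IL-2 and 35.9, 31.6 and 30.2 CPM after PBS. All FP libraries were well above all others, with a change of 1.06 (95% interval 0.83 to 1.29, adjusted p = 1.06e-05), and IL-2 gave 0.10 (95% interval -0.14 to 0.34, adjusted p = 1). At 168 h the libraries had 49.9, 38.6, 52.2 and 40.9 CPM after FP and 24.2, 27.6 and 39.9 CPM after PBS, overlapping in 1 PBS library, with a change of 0.57 (95% interval 0.18 to 0.96, adjusted p = 0.158).

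Maf (ENSMUSG00000055435, chromosome 8, 115682942 to 115707794, minus strand), a basic leucine zipper factor that drives IL-10 in T cells, had 134, 150.5, 143 and 136 CPM after FP, 178, 205, 207 and 214 CPM after IL-2 and 187, 198, 172 and 146 CPM after PBS at 16 h. Its FP libraries lay under the IL-2 libraries and overlapped the lowest PBS library, and the change was -0.32 (95% interval -0.51 to -0.14, adjusted p = 0.00714). Without PBS library 1, 2 or 3, or FP library 1, 3 or 4, it missed the threshold, from -0.26 (adjusted p = 0.0287) without PBS library 2 to -0.30 (adjusted p = 0.0255) without FP library 4. It also missed it with DESeq2's size factors, at -0.29 (adjusted p = 0.0143), and with no low-count filter, at -0.27 (adjusted p = 0.0178). At 72 h it had 259, 262, 257 and 314 CPM after FP, 183, 203 and 262 CPM after IL-2 and 197, 187 and 190.3 CPM after PBS. Every FP library was above every PBS library, while the highest IL-2 library lay among the FP libraries. The change was 0.51 (95% interval 0.25 to 0.78, adjusted p = 0.00432), and 0.53 (adjusted p = 0.0118), 0.49 (adjusted p = 0.024) and 0.51 (adjusted p = 0.0206) without PBS library 1, 2 and 3 in turn. At 168 h the groups overlapped, at 235, 185, 251 and 194 CPM after FP and 147, 149.9 and 223 CPM after PBS.

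Gata3 (ENSMUSG00000015619, chromosome 2, 9857078 to 9890034, minus strand), the type 2 helper factor that Tregs of barrier tissues also use, was 143, 142, 125 and 125 CPM after FP, 164, 165, 158 and 149 CPM after IL-2 and 155, 184, 171 and 121 CPM after PBS at 16 h, with FP under IL-2 and among the PBS libraries. The change against PBS was -0.24 (95% interval -0.45 to -0.02, adjusted p = 0.0731), and without PBS library 4, the lowest, -0.34 (adjusted p = 0.00131). At 72 h Gata3 had 211, 249, 221 and 255 CPM after FP, 169.9, 161 and 149.9 CPM after IL-2 and 175, 156 and 149 CPM after PBS. FP was above both other groups in every library, and the change was 0.55 (95% interval 0.34 to 0.76, adjusted p = 0.000607). At 168 h it was 220.2, 201, 206 and 173 CPM after FP and 133, 169 and 162 CPM after PBS, again with no overlap, but the change of 0.37 (95% interval 0.13 to 0.62, adjusted p = 0.144) did not pass the threshold.

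Tbx21 (ENSMUSG00000001444, chromosome 11, 97098071 to 97115331, minus strand), the type 1 helper factor T-bet, had the lowest median per kb of the 10. At 16 h it had 7.10, 8.08, 6.36 and 7.61 CPM after FP, 7.13, 8.34, 5.97 and 8.36 CPM after IL-2 and 4.42, 7.17, 5.58 and 3.69 CPM after PBS, overlapping groups with a change of 0.48 (95% interval 0.10 to 0.86, adjusted p = 0.0433) after FP. Without PBS library 2, the highest of its group, that change was 0.67 (adjusted p = 0.00599), past the threshold. At 72 h it was 10.2, 12.5, 13.9 and 14.9 CPM after FP, 6.11, 6.94 and 6.69 CPM after IL-2 and 6.72, 5.83 and 6.43 CPM after PBS. The FP libraries stood above all others, with a change of 1.03 (95% interval 0.70 to 1.36, adjusted p = 0.000177). At 168 h the values of 14.6, 9.95, 14.2 and 10.0 CPM after FP and 5.76, 7.39 and 11.2 CPM after PBS overlapped, with a change of 0.59 (95% interval 0.05 to 1.13, adjusted p = 0.289).

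Id2 (ENSMUSG00000020644, chromosome 12, 25093799 to 25097140, minus strand), the E protein inhibitor of effector and innate-like cells, passed against PBS in none of the in vivo comparisons. At 72 h, when the other 4 effector genes were higher, it was 35.0, 33.8, 23.7 and 32.6 CPM after FP, 25.5, 31.8 and 29.1 CPM after IL-2 and 33.6, 35.7 and 28.3 CPM after PBS, with overlapping ranges and an interval of -0.36 to 0.25 for the FP change. At 168 h it had 47.9, 38.3, 34.4 and 43.3 CPM after FP and 32.3, 23.2 and 31.4 CPM after PBS. These groups did not overlap, yet the change of 0.50 (95% interval 0.16 to 0.83, adjusted p = 0.147) did not pass. At 1.5 h PBS library 4 had 73.4 CPM, far above the other PBS libraries, beside 34.4 to 54.7 CPM in FP libraries and 28.0 to 73.1 CPM in IL-2 libraries.

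**Figure D4:**
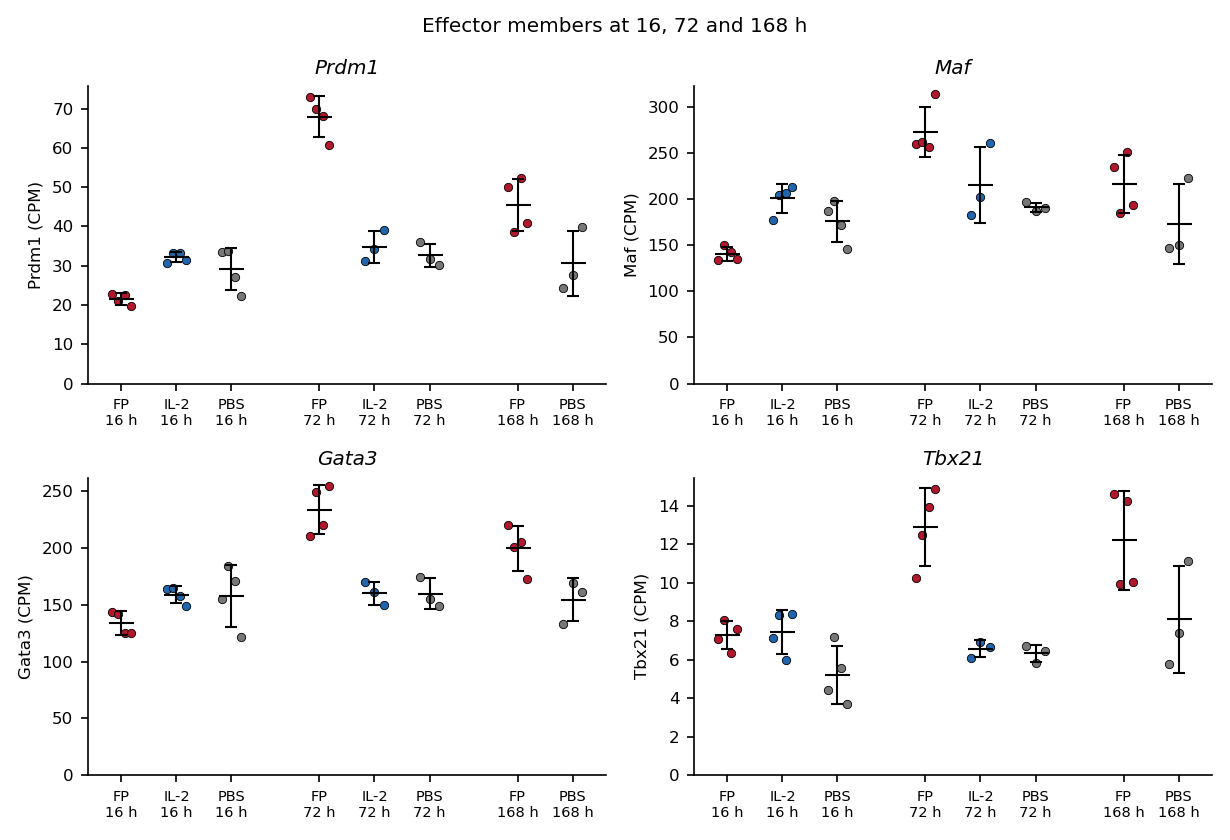
Prdm1, Maf, Gata3 and Tbx21 in CPM at 16 h, 72 h and 168 h, with FP left of IL-2 (not measured at 168 h) left of PBS, points for libraries and bars for the mean ± SD. At 72 h every FP library lies above every PBS library for all 4 genes, and at 16 h the FP libraries of Prdm1, Maf and Gata3 lie below the IL-2 libraries.

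Markers of other cells moved with the treatment at the late times. The 10 myeloid and macrophage markers, of which 9 or 10 were in each table, summed to 20.6 to 92.0 CPM after FP, 468 to 839.5 CPM after IL-2 and 453 to 1144 CPM after PBS at 72 h, and to 28.9 to 46.1 CPM after FP and 300.1 to 438 CPM after PBS at 168 h. At 16 h the sums overlapped, at 367 to 759 CPM after FP and 561 to 882 CPM after PBS. At 72 h after FP 9 of 10 of these markers were lower past the threshold, beside 13.1% of all genes. At 168 h it was 8 of the 9 tested, where 1.21% of all genes changed. None was at 0 in all libraries of a group, and 2 of 10 were below 1 CPM in the 72 h FP group and 1 of 9 in the 168 h FP group. B cell markers summed to 26.2 to 35.5 CPM after FP and 27.6 to 49.5 CPM after PBS at 72 h. At 16 h, when 3 of 8 of them and 14.3% of all genes were lower after FP, they summed to 24.2 to 33.5 CPM after FP and 40.1 to 51.1 CPM after PBS. At 168 h the B cell sums lay apart, at 24.4 to 29.2 CPM after FP and 31.6 to 45.7 CPM after PBS. The part of these cells in the changes of the 10 genes was not tested.

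FP against IL-2 separated the agents by time. At 1.5 h edgeR called 0% of genes, with 970 at an unadjusted p below 0.05 and 1 by DESeq2. Among the 10 it called 0, with 1 at an unadjusted p below 0.05 and 0 by DESeq2. That one was Tcf7, higher after FP than after IL-2 in every library, at 0.45 (95% interval 0.23 to 0.66, adjusted p = 0.624). The difference of Bcl6 was 0.26 (95% interval -0.08 to 0.60, adjusted p = 0.923). At 4 h edgeR called 0% of genes, with 482 at an unadjusted p below 0.05 and 4 by DESeq2. Among the 10 it called 0, with 1 at an unadjusted p below 0.05 (Id2, a difference of 0.82 with an interval of 0.03 to 1.62) and 0 by DESeq2. At 16 h 6 of the 10 were lower with FP than with IL-2 and none higher, where 31.8% of all genes differed and 14.9% were lower. The differences were -2.27 (adjusted p = 6.75e-10) for Bcl6, -0.93 (adjusted p = 1.09e-06) for Tcf7 and -0.53 (adjusted p = 0.00199) for Id3. Bach2 (-0.53, adjusted p = 1.87e-05), Prdm1 (-0.58, adjusted p = 0.000488) and Maf (-0.51, adjusted p = 0.000165) differed in the same direction. Id3 missed the threshold without IL-2 library 2, at -0.45 (adjusted p = 0.0164), and without IL-2 library 3, at -0.42 (adjusted p = 0.0197).

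At 72 h 3 of the 10 were lower with FP than with IL-2 and 3 higher, where 30.8% of all genes differed, 12.9% lower and 17.9% higher. Bcl6 (-1.31, adjusted p = 0.000135), Tcf7 (-0.91, adjusted p = 0.000109) and Bach2 (-0.72, adjusted p = 4.44e-05) were the lower ones. Prdm1 (0.96, adjusted p = 2.1e-05), Tbx21 (0.97, adjusted p = 0.000252) and Gata3 (0.55, adjusted p = 0.000646) were higher after FP. Maf was not called at 0.34 (adjusted p = 0.0348), and without IL-2 library 3, its highest at 72 h, it was 0.50 (adjusted p = 0.00369). These differences use the same FP libraries as the comparisons with PBS. After IL-2 itself no change of the 10 against PBS at 72 h had an absolute log2 value above that of Id2 (-0.18, interval -0.50 to 0.15), and the intervals of Bcl6 (-0.37 to 0.47) and Prdm1 (-0.14 to 0.34) did not reach the changes seen after FP.

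Whether an effect differed between times was tested as the difference of the log2 changes, each table keeping its own PBS libraries. The IL-2 effect at 16 h minus that at 1.5 h was 1.61 (95% interval 1.21 to 2.01, adjusted p = 8.73e-06) for Bcl6 and 1.37 (95% interval 1.07 to 1.66, adjusted p = 2.05e-06) for Tcf7, the 2 of the 10 that passed, both higher, beside 10% of all genes changed and 3.7% higher. Both genes were lower after IL-2 at 1.5 h and near PBS at 16 h. For FP, 1 of the 10 differed between 16 h and 1.5 h, beside 3.75% of all genes changed and 0.931% lower: Bcl6, lower at 16 h, with a difference of -0.89 (95% interval -1.32 to -0.46, adjusted p = 0.00962). That call was lost in 16 of 20 alternative settings, 13 of which leave out 1 of the 16 libraries, at -0.79 (adjusted p = 0.0272) without 1.5 h FP library 2 and -0.94 (adjusted p = 0.01) without 1.5 h FP library 3. It held without 1.5 h FP library 1, without 16 h PBS library 4, without 16 h FP library 1 and with DESeq2. Tcf7 gave 0.02 (95% interval -0.32 to 0.36, adjusted p = 0.968).

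Between 16 h and 72 h the FP effect rose for 4 of the 10 and fell for none, beside 10.9% of all genes changed and 5.43% higher. The difference was 1.47 (95% interval 1.11 to 1.83, adjusted p = 2.87e-05) for Prdm1, 0.81 (95% interval 0.53 to 1.09, adjusted p = 0.000399) for Maf and 0.76 (95% interval 0.42 to 1.10, adjusted p = 0.00303) for Gata3. Prdm1 and Maf are the genes called lower than PBS at 16 h and higher at 72 h. The call of this difference held for both in all 19 alternative settings. Their calls against PBS at 16 h were lost in 6 of 13 settings for Prdm1 and 9 of 13 for Maf. Gata3 lost it without 16 h FP library 4, 72 h PBS library 2 or 72 h PBS library 3, at 0.74 (adjusted p = 0.0104), 0.74 (adjusted p = 0.0147) and 0.72 (adjusted p = 0.0123). Id3 also passed, at 0.64 (95% interval 0.30 to 0.99, adjusted p = 0.0095), and lost the call in 15 of 19 settings, 13 of them omissions of 1 library, with values from 0.57 (adjusted p = 0.0201) without 16 h PBS library 3 to 0.69 (adjusted p = 0.0141) without 72 h PBS library 1. Bcl6 gave 0.91 (95% interval 0.40 to 1.43, adjusted p = 0.0133), and passed without 16 h PBS library 4, at 1.01 (adjusted p = 0.00695), and without 72 h FP library 1, at 1.05 (adjusted p = 0.0034).

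Between 72 h and 168 h the FP effect rose for 2 of the 10, beside 6.22% of all genes changed and 1.57% higher. The difference was 1.50 (95% interval 0.91 to 2.08, adjusted p = 0.00204) for Bcl6, which kept the call in all 18 alternative settings. For Tcf7 it was 0.70 (95% interval 0.36 to 1.05, adjusted p = 0.00912), a call lost in 14 of 18 settings, among them the omission of each of 13 of the 14 libraries, with values from 0.60 (adjusted p = 0.0154) without 72 h FP library 1 to 0.75 (adjusted p = 0.0113) without 168 h FP library 4. Bach2 gave 0.48 (95% interval 0.17 to 0.79, adjusted p = 0.0376) and Id3 0.44 (95% interval 0.17 to 0.70, adjusted p = 0.0297). Of the effector genes named at 72 h none passed: Prdm1 had -0.46 (95% interval -0.92 to 0.00, adjusted p = 0.171), Gata3 -0.15 (95% interval -0.48 to 0.18, adjusted p = 0.556), Maf -0.16 (95% interval -0.59 to 0.26, adjusted p = 0.626) and Tbx21 -0.41 (95% interval -1.06 to 0.25, adjusted p = 0.402).

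In vitro IL-2 gave the steepest fall of Bcl6 in the series. Bcl6 was 31.9, 33.0 and 34.0 CPM in IL-2 libraries and 319.6, 315 and 306 CPM in PBS libraries, groups far apart, with a log2 change of -3.25 (95% interval -3.33 to -3.16, adjusted p = 7.36e-28). The level in the in vitro PBS libraries stood above the 41.0 to 57.4 CPM of the in vivo PBS groups, in tables normalized separately. Id3 was the reverse, at 8.52 to 11.8 CPM in vitro against PBS means of 33.8 to 74.7 CPM in vivo, and Id2 was at 80.8 to 98.1 CPM against means of 19.6 to 41.7 CPM. Culture and table cannot be told apart in these levels.

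Tcf7 was 186, 183 and 179 CPM after IL-2 in vitro and 286, 289.7 and 271 CPM after PBS, again without overlap, a change of -0.63 (95% interval -0.70 to -0.55, adjusted p = 1.37e-13). Gata3 had 297, 290.0 and 295 CPM after IL-2 and 209, 201 and 205 CPM after PBS, a change of 0.52 (95% interval 0.45 to 0.59, adjusted p = 2.51e-12). Prdm1 had 40.0, 41.4 and 42.0 CPM after IL-2 and 27.5, 28.9 and 28.0 CPM after PBS, a change of 0.55 (95% interval 0.42 to 0.67, adjusted p = 3.37e-08). In both, all IL-2 libraries were above all PBS libraries. Maf changed by 0.27 (adjusted p = 1.04e-05) and Id2 by -0.26 (adjusted p = 0.000566); without PBS library 3 Id2 was -0.18 (adjusted p = 0.0123). Id3 was at the threshold, with 13.5, 12.7 and 12.8 CPM after IL-2 and 10.2, 8.52 and 11.8 CPM after PBS and a change of 0.36 (95% interval 0.15 to 0.56, adjusted p = 0.01), and passed without PBS library 3, at 0.48 (adjusted p = 0.00142).

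The IL-2 effect in vitro minus that in vivo at 1.5 h passed for 2 of the 10, beside 5.17% of all genes. It was -1.73 (95% interval -2.07 to -1.38, adjusted p = 6.72e-06) for Bcl6, a steeper fall in vitro, and 0.86 (95% interval 0.66 to 1.06, adjusted p = 2.54e-05) for Tcf7, a shallower one. Among the others Gata3 gave 0.36 (95% interval 0.14 to 0.58, adjusted p = 0.0401) and Tbx21 -0.85 (95% interval -1.38 to -0.33, adjusted p = 0.0377), and neither passed. Gata3 did so without 1.5 h PBS library 1, at 0.43 (adjusted p = 0.00435), Tbx21 without 1.5 h IL-2 library 2, at -0.98 (adjusted p = 0.00746), and Id3 without 1.5 h PBS library 4, at 1.10 (adjusted p = 0.00235).

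At the high dose of IL-2 none of the 10 passed, and the 3 with an unadjusted p below 0.05 were all effector genes, Prdm1, Maf and Tbx21. Prdm1 was 39.2, 95.7 and 47.0 CPM after IL-2 and 27.9, 19.3 and 24.6 CPM after PBS. All 3 IL-2 libraries were above all PBS libraries and library 2 was far above the other 2, and the change was 1.34 (95% interval 0.47 to 2.21, adjusted p = 0.14). Maf was 229.7, 204 and 247 CPM after IL-2 and 173, 109.6 and 170.0 CPM after PBS, a change of 0.59 (95% interval 0.06 to 1.11, adjusted p = 0.261). Tbx21 was 12.0, 18.5 and 12.9 CPM after IL-2 and 8.19, 4.45 and 10.1 CPM after PBS, a change of 0.93 (95% interval 0.09 to 1.77, adjusted p = 0.262). Neither of these pairs of groups overlapped. Bcl6, at 32.7, 33.7 and 49.0 CPM after IL-2 and 41.3, 41.4 and 53.6 CPM after PBS, and Tcf7, at 466, 682 and 565 CPM after IL-2 and 533, 469.7 and 652 CPM after PBS, overlapped between the groups. Their intervals, -0.76 to 0.28 and -0.46 to 0.56, are wide. Bach2 had 149, 116 and 139 CPM after IL-2 and 169.9, 254 and 150.3 CPM after PBS, all IL-2 libraries below all PBS libraries, with a change of -0.51 (95% interval -1.08 to 0.06, adjusted p = 0.361). The myeloid and macrophage markers summed to 43.9 to 60.0 CPM after IL-2 and 101 to 112 CPM after PBS, and their part was not tested.

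The restimulation table sets FP then FP beside PBS then FP and PBS then PBS, and holds no group of FP then PBS. What the first FP left behind therefore cannot be told apart from a changed answer to the second. Bcl6 was 16.8, 16.4, 11.0 and 17.9 CPM after FP then FP, 64.8, 19.9 and 13.003 CPM after PBS then FP and 46.5, 54.9 and 70.7 CPM after PBS then PBS. All FP then FP libraries were low, and library 1 of PBS then FP lay among the libraries never given FP. The change against PBS then PBS was -1.89 (95% interval -2.90 to -0.88, adjusted p = 0.0468) after FP then FP and -0.81 (95% interval -1.89 to 0.26, adjusted p = 0.775) after PBS then FP. Without library 1 PBS then FP gave -1.80 (adjusted p = 0.0295), and FP then FP minus PBS then FP was -1.07 with that library and -0.09 (adjusted p = 0.843) without it.

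Tcf7 was 386, 478, 278 and 406 CPM after FP then FP, 581, 285 and 305 CPM after PBS then FP and 524, 445 and 575 CPM after PBS then PBS, ranges that overlapped. Its change was -0.41 (95% interval -0.99 to 0.17, adjusted p = 0.376) after FP then FP and -0.40 (95% interval -1.02 to 0.22, adjusted p = 0.873) after PBS then FP, or -0.80 (adjusted p = 0.15) without library 1. Id3 was 53.0, 59.3, 36.0 and 55.4 CPM after FP then FP, 43.4, 25.9 and 28.7 CPM after PBS then FP and 68.2, 59.5 and 84.2 CPM after PBS then PBS. Each library given FP was below each given PBS alone, and PBS then FP gave -1.11 (95% interval -1.64 to -0.58, adjusted p = 0.0998) with library 1 and -1.37 (adjusted p = 0.0367) without it. Bach2 gave -0.51 (95% interval -0.77 to -0.24, adjusted p = 0.0552) between FP then FP and PBS then FP, and -0.50 (adjusted p = 0.117) without library 1, with no overlap at 123, 108, 149 and 126 CPM after FP then FP and 182, 172 and 186 CPM after PBS then FP. After PBS then PBS it was 143 to 159 CPM. The PBS then FP libraries were all above this range, and the FP then FP libraries overlapped with it.

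Among the effector genes FP then FP gave the highest levels of the table for Gata3, Id2, Tbx21 and Prdm1. Maf was 284 to 326 CPM after FP then FP, 164 to 306 CPM after PBS then FP and 216 to 267 CPM after PBS then PBS. Its FP then FP libraries lay above the PBS then PBS libraries and overlapped with PBS then FP. Gata3 was 366, 394, 307 and 377 CPM after FP then FP, 180.1, 216 and 185 CPM after PBS then FP and 196, 192 and 237 CPM after PBS then PBS. The FP then FP libraries were above all others. FP then FP minus PBS then FP was 0.90 (95% interval 0.60 to 1.20, adjusted p = 0.00886), the 1 of the 10 that passed in that comparison, beside 0.585% of all genes changed and 0.44% higher. The call was lost without PBS then FP library 1, 2 or 3 and without FP then FP library 1, 2 or 4, at 0.85 (adjusted p = 0.0431), 0.98 (adjusted p = 0.0329), 0.87 (adjusted p = 0.0513), 0.89 (adjusted p = 0.0331), 0.86 (adjusted p = 0.0227) and 0.88 (adjusted p = 0.0322) in that order. Against PBS then PBS it was 0.79 (95% interval 0.50 to 1.09, adjusted p = 0.0136).

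Id2 had 46.3, 51.6, 37.0 and 48.4 CPM after FP then FP, 32.2, 26.2 and 24.8 CPM after PBS then FP and 25.7, 25.5 and 29.1 CPM after PBS then PBS. Tbx21 had 15.4, 22.6, 12.6 and 18.1 CPM after FP then FP, 8.87, 8.24 and 6.21 CPM after PBS then FP and 10.2, 8.36 and 10.2 CPM after PBS then PBS. Prdm1 had 75.7, 69.6, 60.3 and 69.7 CPM after FP then FP, 54.8, 42.5 and 40.0 CPM after PBS then FP and 39.1, 39.8 and 48.7 CPM after PBS then PBS. For all 3 the FP then FP libraries were above all others, and edgeR's adjusted p missed the threshold. Against PBS then PBS the changes were 0.78 (95% interval 0.46 to 1.09, adjusted p = 0.0173) for Id2, 0.84 (95% interval 0.37 to 1.31, adjusted p = 0.0543) for Tbx21 and 0.69 (95% interval 0.38 to 1.01, adjusted p = 0.026) for Prdm1, and DESeq2 called all 3, with Bcl6 and Gata3. After PBS then FP the changes were 0.05 (adjusted p = 1) for Id2, 0.11 (adjusted p = 1) for Prdm1, -0.11 (adjusted p = 1) for Gata3 and -0.30 (adjusted p = 0.91) for Tbx21. Without library 1 they were -0.07 (adjusted p = 0.979), -0.04 (adjusted p = 0.988), -0.06 (adjusted p = 0.984) and -0.41 (adjusted p = 0.692) in the same order. The FP effect after PBS here minus the FP effect at 1.5 h was called by edgeR for 0% of genes, with 1824 at an unadjusted p below 0.05 and 91 by DESeq2. Among the 10 it called 0, with 2 at an unadjusted p below 0.05 and 0 by DESeq2. It was 0.47 (95% interval -0.71 to 1.65, adjusted p = 0.866) for Bcl6 and -0.53 (adjusted p = 0.575) without library 1. The myeloid and macrophage markers summed to 38.6 to 96.8 CPM after FP then FP, 195 to 212 CPM after PBS then FP and 104 to 191 CPM after PBS then PBS, and their part was not tested.

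**Figure D5:**
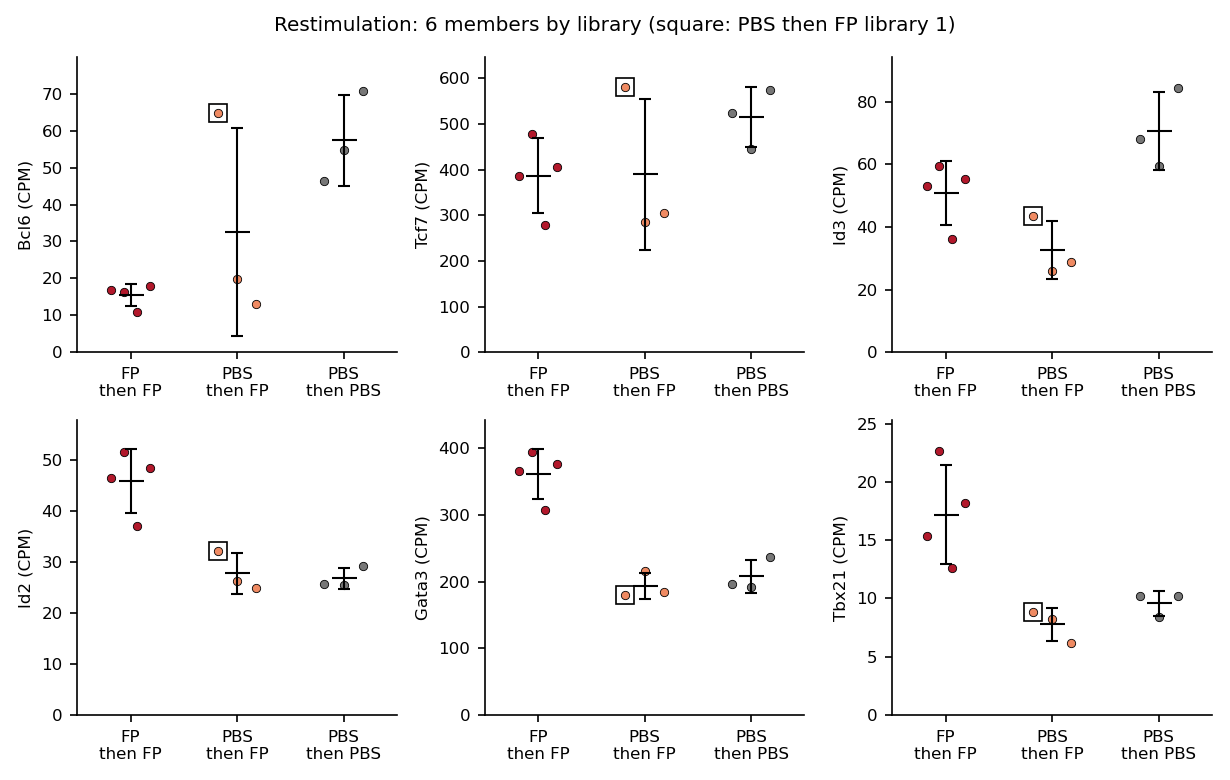
Bcl6, Tcf7, Id3, Id2, Gata3 and Tbx21 in CPM after FP then FP, PBS then FP, and PBS then PBS, with points for libraries, bars for the mean ± SD and a square around library 1 of PBS then FP. Gata3, Id2 and Tbx21 are highest in the 4 FP then FP libraries, and the squared library lies with PBS then PBS for Bcl6 and Tcf7.

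Other regulators of the same 2 states were read beside the 10, naming at most 3 called genes per list and comparison, those of lowest p. All lists were chosen with earlier results of these data known, so their counts beside all genes are descriptions and no test. Of 9 other resting-state factors, 2 fell and none rose at 1.5 h after IL-2 and likewise after FP. At that time 5.79% of all genes were lower after IL-2 and 2.28% after FP. Klf3, a repressor of the Krüppel-like family, averaged 172 ± 17.2 CPM after FP, 154 ± 12.0 CPM after IL-2 and 371 ± 52.2 CPM after PBS, and Foxo1, which drives Ccr7 and Il7r, changed by -0.56 ± 0.08 (log2, SE) after FP and -0.61 ± 0.08 after IL-2. At 16 h after FP 5 of the 9 fell and none rose, led by Klf3 (-0.71 ± 0.07), the chromatin organizer Satb1 (-0.63 ± 0.07) and Foxo1 (-0.48 ± 0.06). The list median was -0.23, beside -0.05 for all genes, of which 14.3% were lower. At 72 h after FP 1 of the 9 fell, Foxp1 at -0.53 ± 0.08, a share below the 13.1% of all genes that were lower, with a median of -0.09 beside -0.05, and at 168 h none of the 9 passed. In vitro 4 fell and none rose, where 6.54% of all genes were lower, led by Foxo1 (-0.42 ± 0.04), Klf3 (-0.35 ± 0.04) and Foxp1 (-0.28 ± 0.04).

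Of 14 other effector-state factors, 4 rose and 1 fell at 1.5 h after IL-2, and 3 rose and none fell after FP. Among all genes 14.2% changed after IL-2, 5.79% lower, and 6.67% changed after FP, 2.28% lower. Myb, which sustains effector Tregs, averaged 253 ± 58.5 CPM after FP, 316 ± 29.5 CPM after IL-2 and 39.2 ± 6.12 CPM after PBS, and IL-2 also raised Rbpj (0.61 ± 0.06), the factor of Notch signals, and Irf4 (0.77 ± 0.12). At 16 h after FP the called genes of lowest p went both ways: Myb (1.96 ± 0.09) and Runx3 (0.62 ± 0.08) rose and Rora (-0.84 ± 0.09) fell. At 72 h after FP 7 of the 14 rose and 3 fell, beside 17.3% of all genes higher and 13.1% lower. The list median was 0.33 beside -0.05 for all genes. Runx3, a factor of cytotoxic cells, changed by 1.00 ± 0.11, while Zeb2 (-3.99 ± 0.39), which myeloid cells also express, and Eomes (-2.11 ± 0.25) fell. Zeb2 fell at the time when the myeloid and macrophage markers were lower, and the part of those cells was not tested. At 168 h 1 rose (Runx3, 0.67 ± 0.11) and 2 fell (Myb, -1.55 ± 0.14, and Zeb2, -2.80 ± 0.29), beside 1.21% of all genes changed. Myb, lower at 168 h, had been higher after FP at 1.5 h (2.69 ± 0.17), 4 h (3.14 ± 0.29) and 16 h (1.96 ± 0.09), and the FP effect at 168 h minus that at 72 h was -2.89 ± 0.26. In vitro 7 rose and 2 fell, where 7.4% of all genes were higher and 6.54% lower, led by Hif1a (0.92 ± 0.04), Nfil3 (1.03 ± 0.04) and Irf4 (0.75 ± 0.04).

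Among 15 partners and co-repressors (E proteins, small MAF proteins, Groucho/TLE proteins and the co-repressors of BCL6) 4 rose and 1 fell at 1.5 h after IL-2, and 3 rose and 1 fell after FP. At that time 14.2% of all genes changed after IL-2 and 6.67% after FP. Zfpm1, the GATA cofactor FOG1, fell by 0.73 ± 0.11 after FP and 1.14 ± 0.11 after IL-2, and Tle3, of a family of TCF1 and LEF1 partners, rose by 0.49 ± 0.08 after FP and 0.57 ± 0.08 after IL-2. At 16 h after FP 1 of the 15 rose and 2 fell: Tle4 (-0.46 ± 0.06) and the E protein gene Tcf4 (-0.54 ± 0.11) fell and Tle1 (0.35 ± 0.09) rose. At 72 h none rose and 2 fell, Tcf4 (-1.64 ± 0.15) and Tle1 (-0.51 ± 0.12). Tcf4 was also lower at 168 h (-1.09 ± 0.18). At both times the myeloid and macrophage markers were lower, and the part of those cells was not tested. The share of the 15 that fell lay close to that of all genes, 14.3% at 16 h and 13.1% at 72 h. The medians stayed near those of all genes, at -0.03 beside -0.05 at 16 h and 0.03 beside -0.05 at 72 h.

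Genes that mark the 2 states downstream of such factors were counted by time. Of 8 resting-state targets 5 fell and none rose at 16 h after FP, where 14.3% of all genes were lower, with a median of -0.41 beside -0.05: the IL-7 receptor gene Il7r changed by -2.02 ± 0.22, the exit receptor S1pr1 by -0.71 ± 0.08 and the kinase Dgka by -0.51 ± 0.07. At 72 h 3 fell and 1 rose, led by Il7r (-1.14 ± 0.15), Il6ra (-0.62 ± 0.09) and the homing receptor Ccr7 (-0.78 ± 0.15), and at 168 h none of the 8 passed. Of 10 effector-state targets 1 rose and 4 fell at 16 h, with a median of -0.40 beside -0.05. Granzyme B (Gzmb) was the one that rose, by 4.28 ± 0.27, and the receptors Ccr6 (-0.81 ± 0.11) and Klrg1 (-0.76 ± 0.14) were among those that fell. At 72 h 8 rose and 1 fell, where 17.3% of all genes were higher and 13.1% lower, with a median of 1.25 beside -0.05. Gzmb changed by 8.01 ± 0.42 and the IL-33 receptor gene Il1rl1 by 1.96 ± 0.22, while Ccr6 changed by -1.504 ± 0.16. At 168 h 4 rose and 1 fell, beside 1.21% of all genes changed, with Il1rl1 at 2.03 ± 0.17 and Gzmb at 5.78 ± 0.74, at the time when none of the 10 factors passed. After FP then FP 3 rose and 1 fell against PBS then PBS, beside 0.629% of all genes changed: Gzmb (5.36 ± 0.35), Il1rl1 (1.89 ± 0.20) and Klrg1 (1.81 ± 0.22) rose. The FP effect at 72 h minus that at 16 h was higher for 8 of these 10 targets and lower for none, with a median of 1.70 beside -0.0042 for all genes. Among all genes 10.9% changed and 5.43% were higher in that difference. Both target lists were chosen with earlier results of these data known, so the counts describe them and test nothing.

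Likeness of pattern was measured as Pearson's r over the 13 log2 changes against PBS, among 9656 named genes of at least 5 CPM. These points are not independent, since FP and IL-2 at 1.5 h, 4 h, 16 h and 72 h and both FP groups of the restimulation table share their PBS libraries, so r is given as a description. Tcf7 was most like Stk38 (r = 0.97) and Armc7 (r = 0.97), and Bcl6, with the largest single change in vitro, was less closely matched, by Slc22a15 (r = 0.86) and Traj15 (r = 0.82). Bach2 was closest to Acrbp (r = 0.96) and Snx29 (r = 0.95), Lef1 to Rabgap1l (r = 0.90) and Zcchc7 (r = 0.89) and Id3 to Ptpn4 (r = 0.78) and Reck (r = 0.74). On the effector side Prdm1 was closest to Ubl3 (r = 0.96) and Ctsa (r = 0.96), Maf to Borcs6 (r = 0.95) and S1pr4 (r = 0.95) and Gata3 to Cd200r1 (r = 0.92) and Furin (r = 0.90). Tbx21 was closest to Snx9 (r = 0.91) and Runx2 (r = 0.91), and Id2 to Prf1 (r = 0.86) and Fth1 (r = 0.84). Among the 10 themselves Prdm1 and Maf were the most alike pair (r = 0.94), Prdm1 and Gata3 had r = 0.74, and Maf and Gata3 had r = 0.75. The patterns did not split by state. The resting gene Tcf7 had r = 0.69 with Maf and 0.59 with Prdm1, beside 0.64 with Bcl6, 0.34 with Bach2 and -0.45 with Lef1.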

How the data were processed

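Total RNA of Tregs sorted from mouse spleens was sequenced after FP, IL-2 or PBS, in 8 tables. Per the labels' protocols RNA was extracted with TRIzol and miRNeasy columns and libraries were made from 25 ng with the KAPA RNA HyperPrep kit with RiboErase. Per the submitters' processing notes reads were aligned with STAR 2.5.0 to GRCm38, counted with featureCounts 1.5.0 against GENCODE M13 and tested with DESeq2. The deposited values are raw counts per gene, which the authors had filtered on low values in each table: every row had over 0.5 CPM (counts scaled to a common library total) in at least 3 columns. Whether counting used strand is not given in the sources used here. Genes missing from a table are not analysed there.

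From the deposited counts, sequencing runs of the same library were summed (72 h and in vitro, where runs of a library agreed within sampling noise), and each table was fitted alone in R 4.3.3 with edgeR 4.0.16 (TMM, filterByExpr, 1 mean per group over all groups, quasi-likelihood F test, 2-sided) with limma 3.58.1. P-values were adjusted by Benjamini-Hochberg over all genes tested and called below 0.01. Fold changes are log2, treated over PBS or as the names say, and 95% intervals come from the F statistic and its degrees of freedom. Differences between tables were tested as interactions with a mean per group and table. CPM are edgeR's, on TMM-scaled library sizes. Exon lengths and coordinates are those of GENCODE M21, which like M13 is on GRCm38. The fits were tested on simulated data. Library totals of 12212262 to 46108114 counts keep counting error low for genes of high CPM. For genes of low CPM it need not be small beside the spread between libraries. That spread was least in vitro, with a coefficient of variation of 4.48%.

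Groups follow the labels, and 2 libraries at 4 h with contradictory labels were left out of the comparisons. No label says that libraries came from separate animals, so p-values measure the spread between these samples, which may be technical. Treated and PBS libraries of the same replicate number deviated together at 4 h (r of 0.375 to 0.798 for IL-2, 0.18 to 0.821 for FP). At 72 h this held between IL-2 and PBS (0.291 to 0.423). These comparisons met the criterion used (every r over 0.1). Between FP and IL-2 at 4 h r was 0.0261 to 0.796, which did not meet it. At 4 h libraries of different numbers also reached r of 0.759 between IL-2 and PBS and 0.614 between FP and PBS. The numbers are therefore not shown to be a pairing. The fits reported have no block, and the fit with it is an alternative. Alternatives were DESeq2 1.42.0, its size factors, no filter, each library left out, the replicate block, a fit of the compared groups alone, the first run alone, other placements of the 2 libraries, lane as a covariate and a threshold of 0.05.

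All 10 genes are named in the text. From each other list at most 3 called genes of lowest p are named per comparison, and the 2 genes most like each of the 10. Members and lists were chosen with earlier results of these data known.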

Additional observations from a re-analysis of the deposited data

Results flagged for a closer look

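In 8 of 100 sets of 4 libraries (10 genes in the 10 groups of 4), 1 library lay apart from the other 3 by Dixon's criterion at the 95% level, which chance meets in about 1 group in 20. For Bcl6 it was library 1 of FP at 16 h, at 10.8 CPM where the others had 8.50 to 8.58 CPM. For Tcf7 it was library 4 of IL-2 at 16 h, at 413 CPM beside 450.3 to 457 CPM. Lef1 was 226 CPM in library 1 of FP then FP, beside 244 to 246 CPM. Bach2 was 262 CPM in library 1 of PBS at 1.5 h, beside 224 to 229 CPM. Id3 was 99.1 CPM in library 1 of IL-2 at 4 h, beside 33.4 to 39.5 CPM. Id2 was 73.4 CPM in library 4 of PBS at 1.5 h, beside 29.6 to 32.8 CPM, and the same library had the lowest Id3 of its group. Maf was 278 CPM in library 2 of IL-2 at 4 h, beside 147 to 161 CPM, and 314 CPM in library 4 of FP at 72 h, beside 257 to 262 CPM.

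Of 60 differences of effects between tables (10 genes in 6 contrasts), 11 passed edgeR's adjusted p of 0.01. The FP effect at 16 h minus that at 1.5 h was -0.89 for Bcl6. The FP effect at 72 h minus that at 16 h was 0.64 for Id3, 1.47 for Prdm1, 0.81 for Maf and 0.76 for Gata3. The FP effect at 168 h minus that at 72 h was 1.50 for Bcl6 and 0.70 for Tcf7. The IL-2 effect at 16 h minus that at 1.5 h was 1.61 for Bcl6 and 1.37 for Tcf7. The IL-2 effect in vitro minus that in vivo was -1.73 for Bcl6 and 0.86 for Tcf7. All are log2 differences whose intervals stand with the comparisons above, and each sets 1 table against another that was filtered on its own, so that time or culture and table cannot be told apart. The PBS libraries of each table entered its own effect.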

How the results depend on the processing

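No value of the 10 genes that was called turned round in any alternative, and 37 of the 47 called values kept their call in all of them. Of 669 alternative values of these 47, 592 stayed on the same side of the threshold and 77 did not, and among the values of all 240 results 38 passed in an alternative and not in the fits reported. The cause was not tested in any case. At 4 h, where none of the 10 was called, 2 (Bcl6 and Tcf7) were called after IL-2 with DESeq2, with the replicate block and with the tag that follows the treatment in the column names as a factor, an alternative chosen after seeing the data. After FP at 4 h it was 2 with DESeq2, with the block, with the 2 contradictory libraries grouped by title and at a threshold of 0.05, and 3 with the tag. Grouped by injected molecule, Bcl6 gave -1.16 (adjusted p = 0.758) and Tcf7 -0.98 (adjusted p = 0.758) after FP. In the restimulation table DESeq2 called 1 after PBS then FP and 5 after FP then FP, where the 2 groups alone gave 1 and a threshold of 0.05 gave 4. Between FP then FP and PBS then FP, where 1 was called, DESeq2 called 3, the 2 groups alone 0 and the replicate block 0. For the FP effect at 16 h minus 1.5 h the 1 call became 0 with DESeq2's size factors, with no filter and with the replicate block, and for 168 h minus 72 h the 2 calls became 1 with those size factors.

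Leaving out 1 library at a time gave 2 to 3 calls after IL-2 at 1.5 h, 4 to 7 after FP at 16 h, 6 to 7 after FP at 72 h, 5 to 6 for FP against IL-2 at 16 h and 6 to 7 at 72 h. It gave 0 to 1 for FP then FP against PBS then FP, 0 to 1 for the FP effect at 16 h minus 1.5 h, 2 to 4 for 72 h minus 16 h, 1 to 2 for 168 h minus 72 h, and 2 to 3 for in vitro minus in vivo. The other counts did not move. Apart from 4 h and the counts given here, the block changed no count of calls among the 10 by over 1.5 times.

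Relative to the count reported, counts over all genes moved most where few were called: over the alternatives 0 to 1252 genes after IL-2 at 4 h (115 reported), 0 to 1684 after FP at 4 h (161), 7 to 137 after IL-2 at 16 h (61), 128 to 520 after FP at 168 h (210), 0 to 549 at the high dose (0), 0 to 143 after PBS then FP (2), 0 to 736 after FP then FP (113) and 0 to 547 between them (105). Other counts that moved by over 1.5 times were 689 to 1700 after FP at 1.5 h (1110), 3549 to 7721 after FP at 72 h (5662), 3727 to 7912 for FP against IL-2 at 72 h (5738), 0 to 1 at 1.5 h (0) and 0 to 4 at 4 h (0). For the differences of effects they were 476 to 1015 for FP at 16 h minus 1.5 h (648), 1175 to 2578 for 72 h minus 16 h (1953), 572 to 1992 for 168 h minus 72 h (1071), 513 to 1268 in vitro minus in vivo (848) and 0 to 91 for FP after PBS minus 1.5 h (0). Without library 1 of PBS then FP the count after PBS then FP was 31. The 4 h, high-dose and restimulation tables had the widest spread between libraries, with a biological coefficient of variation of 38.4%, 40.7% and 27.0%, beside 4.48% in vitro.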

Other observations

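The 2 libraries at 4 h whose labels contradict each other entered no comparison. The library titled FP, with PBS as its injected molecule, had 11.6 CPM of Bcl6, 196 CPM of Tcf7, 31.6 CPM of Id3 and 26.1 CPM of Prdm1. The library titled PBS, with FP as its injected molecule, had 40.4 CPM of Bcl6, 381 CPM of Tcf7, 55.5 CPM of Id3 and 30.1 CPM of Prdm1. For Bcl6 the FP libraries with labels in accord had 8.81 to 16.4 CPM and the PBS libraries 41.3 to 68.1 CPM, and for Tcf7 159.5 to 239 CPM after FP and 424 to 680.3 CPM after PBS.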
